A study of Mus musculus with 17 samples.

Results

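The 9 glutathione transferase genes described here were Gstm5, Gstm2 and Gstm1 of the mu class, Gsta4 of the alpha class, Gstt1 of the theta class, Gsto1 of the omega class, and the membrane-bound Mgst1, Mgst2 and Mgst3. They were taken by gene symbol from the platform annotation, out of 19938 genes with a singly named probe set, and each of the 9 had 1 probe set. The set was chosen by its measured inductions in these data, which were known beforehand, with Gstm5 in the lead because of its own. The inductions of the 9 genes, and the differences between lines in those inductions, are therefore given as values, and nothing is supported with them. Tests are kept for the level before induction, in 1 repressed line against another, and even there the repressed arrays also enter the inductions.

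The RNA came from 3134 cells, a mouse mammary epithelial cell line with a tetracycline-regulated transactivator, and was read on 17 arrays of the Affymetrix Mouse Gene 1.0 ST type. The control line, 3134Tet, carried the transactivator alone, and the other lines also carried a stably integrated, Flag-tagged dominant-negative form of a chromatin remodeler: Brg1 (dnBrg1), Chd4 (dnChd4) or Snf2h (dnSnf2h). Stock cultures held 5 µg/ml tetracycline, so that the transactivator stayed off. For the experiment, cells spent 48 h in charcoal-stripped serum, and are called repressed where tetracycline was kept and induced where it was left out. There were 2 repressed and 3 induced control arrays, and 2 of each state for every remodeler variant. In a dominant-negative line, induction changes tetracycline, the transactivator and the remodeler variant together, and their shares cannot be told apart within that line. Whether a line is 1 clone is not stated in the labels. Nothing in the labels makes the replicates separate cultures, so a p-value here covers the spread between arrays, which may be technical.

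Glutathione transferases join the thiol of glutathione to electrophiles such as drugs, carcinogens and products of lipid peroxidation, which makes them more soluble and ready for export. The cytosolic classes differ in substrates, while the microsomal members belong to the MAPEG family of membrane proteins, some of which make leukotriene C4. Many of these genes answer to oxidants through the transcription factor NRF2, which binds antioxidant response elements, and some answer to the aryl hydrocarbon receptor through xenobiotic response elements.

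Promoter sequences are shown for Gstm5 and Gstm2, which were higher on induction in all 3 dominant-negative lines, for Gstm1, their neighbour that went opposite ways, and for Mgst2, which was lower in all 3. Each is the 250 bases before the annotated start in RefSeq on GRCm38.p6, 5′ to 3′ on the gene's strand. They lie at chr3:107895604-107895853 on the plus strand (Gstm5), chr3:107986421-107986670 on the minus strand (Gstm2), chr3:108017974-108018223 on the minus strand (Gstm1, the outer of its starts) and chr3:51660929-51661178 on the plus strand (Mgst2). Capitals mark matches, on either strand, to the antioxidant response element core TGACNNNGC, the AP-1 site TGANTCA and the xenobiotic response element core GCGTG.
Gstm5: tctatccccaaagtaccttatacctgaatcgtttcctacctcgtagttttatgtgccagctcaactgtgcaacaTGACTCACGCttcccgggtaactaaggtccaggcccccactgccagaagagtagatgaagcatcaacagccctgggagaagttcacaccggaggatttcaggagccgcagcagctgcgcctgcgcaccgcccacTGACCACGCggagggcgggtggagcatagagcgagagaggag
Gstm2: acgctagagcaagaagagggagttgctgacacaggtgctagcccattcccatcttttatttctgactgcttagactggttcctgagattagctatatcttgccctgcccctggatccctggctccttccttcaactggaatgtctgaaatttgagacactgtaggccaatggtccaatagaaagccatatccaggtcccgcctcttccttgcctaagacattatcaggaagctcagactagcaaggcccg
Gstm1: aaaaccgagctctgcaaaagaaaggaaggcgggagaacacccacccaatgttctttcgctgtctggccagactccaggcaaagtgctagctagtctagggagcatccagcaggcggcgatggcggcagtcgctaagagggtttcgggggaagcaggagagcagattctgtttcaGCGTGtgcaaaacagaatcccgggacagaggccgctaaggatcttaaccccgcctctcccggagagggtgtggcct
Mgst2: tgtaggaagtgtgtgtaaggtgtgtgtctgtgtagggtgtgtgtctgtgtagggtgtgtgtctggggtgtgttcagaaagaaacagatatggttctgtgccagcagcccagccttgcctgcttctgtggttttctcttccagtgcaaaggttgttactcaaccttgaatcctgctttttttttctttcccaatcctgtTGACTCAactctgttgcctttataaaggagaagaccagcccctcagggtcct

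The Gstm5 window held 4 of these matches. An AP-1 match spanned bases -176 to -170 before the start, and a xenobiotic core on the minus strand overlapped it at -171 to -167. An antioxidant core spanned -42 to -34 and overlapped a second xenobiotic core on the minus strand at -38 to -34. The Gstm2 window held none, the Gstm1 window a xenobiotic core at -76 to -72, and the Mgst2 window an AP-1 match at -52 to -46. Windows were found for 8 of the 9 genes, 10 windows in all, and Gsta4 had no entry. An antioxidant core was in 2 of the 10 windows and in 10.2% of all 32851 mouse windows of this length, an AP-1 match in 2 and 6.75%, and a xenobiotic core in 4 and 28.2%. The windows of the Gstm1 starts overlap and hold the same xenobiotic core, which is thus counted in both. A match describes the letters of these windows, not a site in use.

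The labels were checked on the targeted genes and on whole arrays. The Chd4 probe set read 10.35 to 10.56 in repressed and 12.27 in both induced dnChd4 arrays, against 9.81 to 10.36 on the other 13 arrays. Smarca4, which encodes Brg1, and Smarca5, which encodes Snf2h, changed by 0.12 (SE 0.113) and -0.24 (SE 0.118) on induction in their own lines, with no call. Smarca4 read 9.46 to 9.73 on the 4 dnBrg1 arrays, above the 9.12 to 9.43 of the other 13, whereas Smarca5 read 9.43 to 9.81 on the dnSnf2h arrays, within the 8.93 to 9.88 of the others. A rise of the targeted gene on induction was thus seen in dnChd4 alone, and Smarca5 does not set the dnSnf2h arrays apart. Whether the variant was induced in dnBrg1 and dnSnf2h cannot be told from these values. In the control line 2 arrays went against their labels: across genes, the one labelled repressed replicate 1 was closest to induced replicate 2 (r = 0.995), and the one labelled induced replicate 1 was closest to repressed replicate 2 (r = 0.994). Both dnSnf2h repressed arrays were nearest to a dnChd4 repressed array, and 1 dnSnf2h induced array to a dnChd4 induced one. Of 10 mammary epithelial markers, 1 lay below 4.77, the level under which the dimmest 30% of genes fall, on all 17 arrays: Epcam (3.94 to 4.32). Krt19 read 4.26 to 4.88, Krt5 4.58 to 5.12, Cdh1 5.04 to 5.48 and Krt7 5.24 to 6.38. Cldn4 read 5.42 to 6.05, Krt18 5.46 to 5.91, Cldn3 5.80 to 6.81, Krt8 5.81 to 6.62 and Krt14 5.74 to 9.02. Main estimates below come from a limma fit of the 12 dominant-negative arrays, and the control line is described apart.

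Gstm5 spanned 4.23 log2 units over the 17 arrays, the widest range of the 9 genes. Its log2 signal was 7.97 and 7.85 in repressed and 9.04 and 9.07 in induced dnBrg1 cells. In dnChd4 it was 7.63 and 7.48 repressed and 10.79 and 10.72 induced, and in dnSnf2h 7.79 and 8.05 repressed and 9.90 and 9.85 induced. The 6 repressed arrays, between 7.48 and 8.05, lay below the 6 induced arrays, between 9.04 and 10.79, with no overlap. Induction was 1.15 in dnBrg1 (2.21-fold), 3.21 in dnChd4 (9.23-fold) and 1.95 in dnSnf2h (3.86-fold) on the log2 scale (SE 0.104 each). The induced groups followed the order dnChd4, dnSnf2h, dnBrg1 without overlap of their arrays. In bulk RNA, fewer cells of a type and less RNA per cell cannot be told apart.

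Gstm2, a second mu class enzyme, moved the same way over a narrower span. Its log2 signal was 7.63 and 7.64 repressed and 8.54 and 8.53 induced in dnBrg1, 7.91 and 7.56 against 8.93 and 8.92 in dnChd4, and 8.09 and 8.11 against 8.78 and 8.82 in dnSnf2h. Again no repressed array reached an induced one. The changes were 0.90, 1.19 and 0.70 (SE 0.106 each), or 1.86-, 2.28- and 1.63-fold. Mu class genes are close paralogs, and probe sequences were not used here, so a probe set could also read a neighbour.

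Gstm1, the mu class gene next along the chromosome, moved in opposite directions. In dnBrg1 its log2 signal was 8.68 and 8.51 repressed and 8.02 and 7.92 induced. In dnChd4 it was 8.42 and 8.04 repressed and 8.96 and 8.77 induced. The dnSnf2h arrays read 8.30 and 8.30 repressed and 8.02 and 8.16 induced. Induced arrays thus lay below repressed ones in dnBrg1 and dnSnf2h and above them in dnChd4. The changes were -0.62, 0.64 and -0.21 (SE 0.125 each). Without dnChd4 repressed replicate 2 the dnChd4 change was 0.45.

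**Figure D1:**
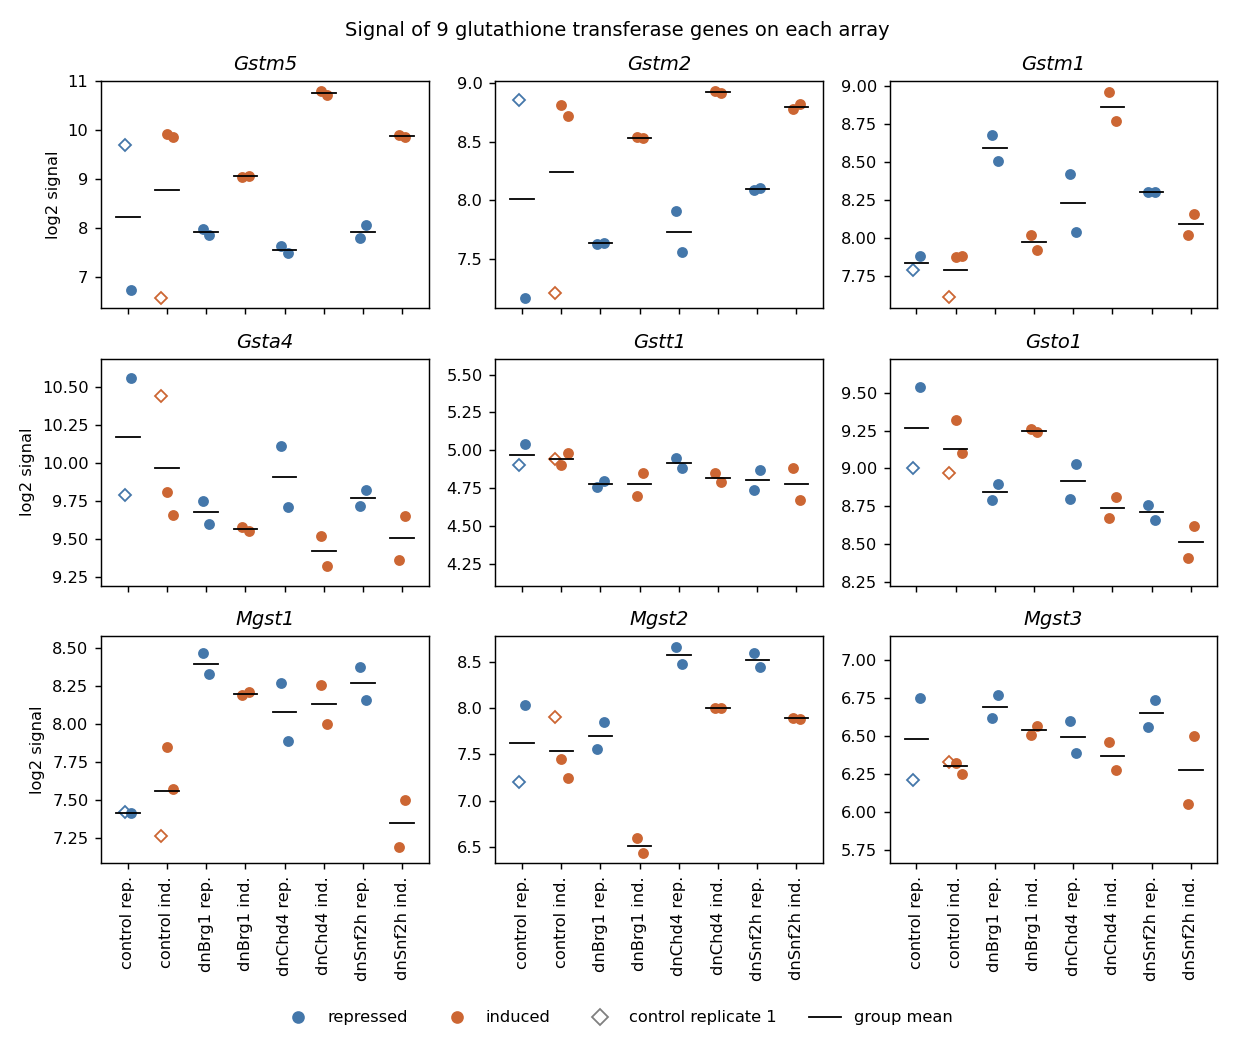
Log2 signal (vertical axis) of each of the 9 genes on each of the 17 arrays, by line and by repressed (rep.) or induced (ind.) state; points are arrays, black lines are group means, and open diamonds are the replicate 1 arrays of the control line. For Gstm5 the 6 repressed dominant-negative arrays lie between 7.48 and 8.05 and the 6 induced ones between 9.04 and 10.79, while each control group holds both high and low arrays.

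Among the other cytosolic members, Gsta4, known for conjugating the lipid peroxidation product 4-hydroxynonenal, read 9.60 to 10.11 in the 6 repressed and 9.32 to 9.65 in the 6 induced dominant-negative arrays. Its change was -0.49 (SE 0.135) in dnChd4, and again -0.49 in a fit of that line alone. Without dnChd4 repressed replicate 1 the dnChd4 change was -0.29, and without dnChd4 induced replicate 2 it was -0.39. The Gsta4 change was -0.11 and -0.27 in dnBrg1 and dnSnf2h. Gsto1, an omega class enzyme with thioltransferase and dehydroascorbate reductase activity, read 8.79 and 8.90 repressed and 9.26 and 9.24 induced in dnBrg1, a change of 0.41 (SE 0.109). With any 1 of the 4 dnBrg1 arrays left out, that change lay between 0.35 and 0.46. In dnChd4 and dnSnf2h the Gsto1 change was -0.18 and -0.20. Gstt1, of the theta class, was dim throughout, between 4.67 and 5.04 on all 17 arrays, and changed by between -0.09 and -0.01.

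Mgst2, a microsomal member that can make leukotriene C4, was the gene lower in all 3 lines. Its log2 signal was 7.56 and 7.85 repressed and 6.59 and 6.43 induced in dnBrg1. It was 8.67 and 8.48 against 8.0 on both arrays in dnChd4, and 8.60 and 8.45 against 7.90 and 7.88 in dnSnf2h. Within each of these lines the repressed arrays lay above the induced ones. The dnBrg1 arrays of both states lay below the dnChd4 and dnSnf2h arrays in the same state. The changes were -1.19, -0.58 and -0.64 (SE 0.114 each), which are 2.28-, 1.49- and 1.55-fold lower.

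Mgst1, the abundant microsomal transferase of the endoplasmic reticulum and outer mitochondrial membrane, changed most in dnSnf2h. Its log2 signal there was 8.38 and 8.16 repressed and 7.19 and 7.50 induced, a change of -0.92 (SE 0.142). In dnBrg1 it read 8.47 and 8.33 against 8.19 and 8.21 and in dnChd4 8.27 and 7.89 against 8.26 and 8.0, changes of -0.20 and 0.04. Mgst3, a related membrane peroxidase and transferase, changed by -0.16, -0.13 and -0.38 (SE 0.137) with no call. For Mgst3 in dnSnf2h the induced arrays read 6.05 and 6.50, and without the second of them the change was -0.60.

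By the threshold used throughout, a limma p adjusted over all genes by Benjamini-Hochberg of under 0.05, 3 of the 9 genes were higher and 2 lower on induction in dnBrg1, where 8.01% and 6.22% of all genes were. In dnChd4 3 were higher and 2 lower, where 11.2% and 6.82% of all genes were. In dnSnf2h 2 were higher and 2 lower, where 9.2% and 8.34% of all genes were. The median change of the 9 was -0.11, -0.09 and -0.21, beside -0.03, -0.03 and -0.01 over all genes. Since the genes were chosen with these changes known, nothing is read from the counts. In all 3 lines alike, 2 of the 9 were higher and 1 lower, beside 921 and 611 of 19938 genes.

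**Figure D2:**
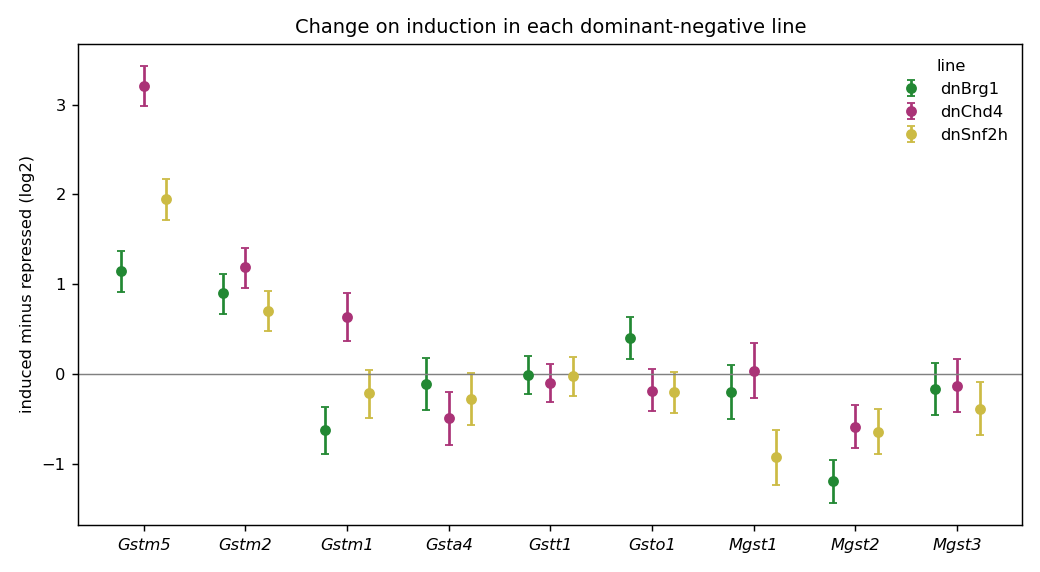
Induced minus repressed log2 signal (vertical axis) of the 9 genes in dnBrg1, dnChd4 and dnSnf2h, with 95% confidence intervals from the limma fit of 12 arrays. Gstm5 stands at 1.15, 3.21 and 1.95, Gstm1 lies on both sides of 0, and Mgst2 lies below 0 in each line.

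The size of the induction is set side by side between lines as a description, since the inductions chose the genes. The Gstm5 change in dnBrg1 minus that in dnChd4 was -2.06 on the log2 scale (SE 0.148, 95% CI -2.38 to -1.75), a 4.17-fold gap. The dnChd4 change minus that of dnSnf2h was 1.26 (95% CI 0.94 to 1.58), and dnBrg1 minus dnSnf2h was -0.80 (95% CI -1.12 to -0.49). The last of these no longer passed the threshold on leaving out dnBrg1 repressed replicate 1 (-0.74), dnBrg1 induced replicate 1 (-0.79) or 2 (-0.82), or dnSnf2h induced replicate 1 (-0.78) or 2 (-0.83), and with median centring of the arrays (-0.73).

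Gstm1 was the other member past the fit's threshold in such a difference, again a description, since the inductions chose the genes. Its change in dnBrg1 minus that in dnChd4 was -1.26 (SE 0.176, 95% CI -1.64 to -0.88), and -1.45 to -1.07 with each array left out. The difference between dnChd4 and dnSnf2h was 0.85 (95% CI 0.47 to 1.23), not past the threshold, and passed without dnChd4 repressed replicate 1 (1.04). Between dnBrg1 and dnSnf2h it was -0.41 (95% CI -0.79 to -0.03), with no call.

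No difference was called for the other 7 members, and their intervals leave room for sizeable ones. For Mgst1 the dnChd4 change minus the dnSnf2h change was 0.97 (95% CI 0.54 to 1.40), and that of dnBrg1 minus dnSnf2h was 0.72 (95% CI 0.29 to 1.15). For Mgst2 the dnBrg1 change minus that of dnChd4 was -0.61 (95% CI -0.96 to -0.27), and minus that of dnSnf2h -0.56 (95% CI -0.90 to -0.21). Gsto1 gave 0.58 and 0.61 for dnBrg1 against dnChd4 and dnSnf2h (95% CI 0.25 to 0.92 and 0.28 to 0.94). The Gstm2 changes differed by between -0.29 and 0.49. Members called were 2 of 9 for dnBrg1 against dnChd4, 1 for dnBrg1 against dnSnf2h and 1 for dnChd4 against dnSnf2h, where 1.27%, 0.632% and 0.13% of all genes were called. Gstm5 is in each of these counts and Gstm1 in the first. The lines' inductions share arrays across these differences, so the counts are not independent of each other, and nothing is read from them.

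The tested question was whether the lines differed before induction. Mgst2 was lower in repressed dnBrg1 cells than in repressed dnChd4 cells, by -0.87 (95% CI -1.12 to -0.63; adjusted p = 0.000121), and than in repressed dnSnf2h cells, by -0.82 (95% CI -1.07 to -0.58; adjusted p = 0.000226). The 2 dnBrg1 arrays read 7.56 and 7.85 and the 4 dnChd4 and dnSnf2h arrays 8.45 to 8.67, without overlap. The 5 control arrays, of both labels, read 7.20 to 8.04, a range that holds the dnBrg1 values. Between repressed dnChd4 and dnSnf2h cells Mgst2 differed by 0.05 (95% CI -0.19 to 0.29; adjusted p = 0.948).

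For the mu class the differences before induction were smaller. Gstm2 was lower in repressed dnBrg1 than in repressed dnSnf2h cells, by -0.46 (95% CI -0.69 to -0.24; adjusted p = 0.00845), and without dnBrg1 repressed replicate 1 the adjusted p was 0.05. Gstm5 was higher in repressed dnBrg1 than in repressed dnChd4 cells, by 0.36 (95% CI 0.14 to 0.59; adjusted p = 0.0301). That call did not survive leaving out any 1 of the 4 arrays, dnBrg1 repressed replicates 1 and 2 (0.30 and 0.42) or dnChd4 repressed replicates 1 and 2 (0.44 and 0.29), or median centring. Gstm1 gave 0.37 for the same comparison (adjusted p = 0.065) and passed without dnChd4 repressed replicate 1 (0.56; adjusted p = 0.0171), without the dimmest genes (adjusted p = 0.0487) and with 15 arrays (adjusted p = 0.0498). Gstm5 between repressed dnChd4 and dnSnf2h was -0.37 (adjusted p = 0.453) and passed without dnSnf2h repressed replicate 1 (-0.50; adjusted p = 0.0314).

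Members called before induction were 2 of 9 for dnBrg1 against dnChd4, 2 for dnBrg1 against dnSnf2h and 0 for dnChd4 against dnSnf2h, by limma. All genes gave 14.4%, 14.3% and 0.015%, so the member counts are near the background. At an unadjusted p under 0.05 the last comparison held 2 of the 9, beside 1579 of 19938 genes.

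The control line split across its labels. Gstm5 read 9.70 and 6.74 on the arrays labelled repressed, and 6.57, 9.92 and 9.86 on those labelled induced. Gstm2 read 8.86 and 7.17 against 7.21, 8.81 and 8.72, and Mgst2 7.20 and 8.04 against 7.91, 7.45 and 7.24. In each case the libraries labelled repressed replicate 1 and induced replicate 1 sat with the other label's arrays. Gsta4 showed the same split, at 9.79 and 10.56 against 10.44, 9.81 and 9.66. Gstm1 did not vary in this way: its 5 control arrays, between 7.61 and 7.88, lay below all 12 dominant-negative arrays, between 7.92 and 8.96. Mgst1 read 7.26 to 7.85 in control, below the 6 repressed dominant-negative arrays at 7.89 to 8.47.

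With all 17 arrays and the labels as given, Gstm5 changed by 0.56 in the control line (SE 0.881), Gstm2 by 0.23 (SE 0.456) and Mgst2 by -0.09 (SE 0.219). Of all genes 0% were called by limma, 845 at an unadjusted p under 0.05, and no member was called either way. In that 17-array fit the member inductions of the dominant-negative lines lost their calls too, at unchanged estimates, since its estimate of spread includes the control groups, and of the differences and repressed-line calls Gstm1 in dnBrg1 against dnChd4 alone still passed. Without the 2 control replicate 1 libraries, Gstm5 changed by 3.15, Gstm2 by 1.60, Gsta4 by -0.82, Mgst2 by -0.69 and Mgst3 by -0.46. Mgst1 changed by 0.30, Gsto1 by -0.33, Gstt1 by -0.10 and Gstm1 by 0.00. The direction of these follows from the choice of arrays. As 1 repressed array is left, which has no spread of its own, only the sizes are given.

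Related genes outside the 9 were described from lists by function. Over all genes, 8.01%, 11.2% and 9.2% were called higher and 6.22%, 6.82% and 8.34% lower in dnBrg1, dnChd4 and dnSnf2h. These shares stand beside each list count below. Of 23 other transferases and relatives, 18 had a singly named probe set, and 1, 5 and 3 were higher and 1, 1 and 1 lower in dnBrg1, dnChd4 and dnSnf2h, with medians of 0.05, 0.07 and 0.02. Gstm7, a mu class gene, rose in all 3 lines, by 0.84 (adjusted p = 0.000203), 0.87 (9.79e-05) and 1.06 (2.41e-05; SE 0.114 each). Gstcd, which carries a glutathione transferase C-terminal domain, fell in all 3, by 0.72 (adjusted p = 0.000193), 0.87 (2.55e-05) and 0.61 (0.000487). The dim mu class gene Gstm6, between 3.34 and 4.91 on all arrays, changed by 0.28 (adjusted p = 0.145), 1.08 (2.20e-05) and 0.44 (0.0184). Its dnSnf2h call was lost on leaving out repressed replicate 2 or induced replicate 1 of that line (0.37 each).

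The mu class genes lie side by side on chromosome 3 in the order Gstm5, Gstm7, Gstm6, Gstm3, Gstm2, Gstm1, Gstm4, with Gstm5 alone on the plus strand. The changes did not follow this order. Gstm7 and Gstm2 rose in every dominant-negative line, while Gstm3, which lies between them and was picked after its values were seen, changed by -0.32, 0.39 and -0.14. In dnChd4 the estimates of all 7 were above 0. A long non-coding RNA, 4933431E20Rik, overlaps Gstm5 on the other strand and was looked at after the Gstm5 values were seen. It changed by 0.46, 1.18 and 0.99 (SE 0.114; adjusted p = 0.0134, 7.69e-06 and 4.01e-05), and its control arrays read 7.25 and 5.37 against 5.42, 7.14 and 7.13. Whether either probe set reads the other strand was not tested.

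**Figure D3:**
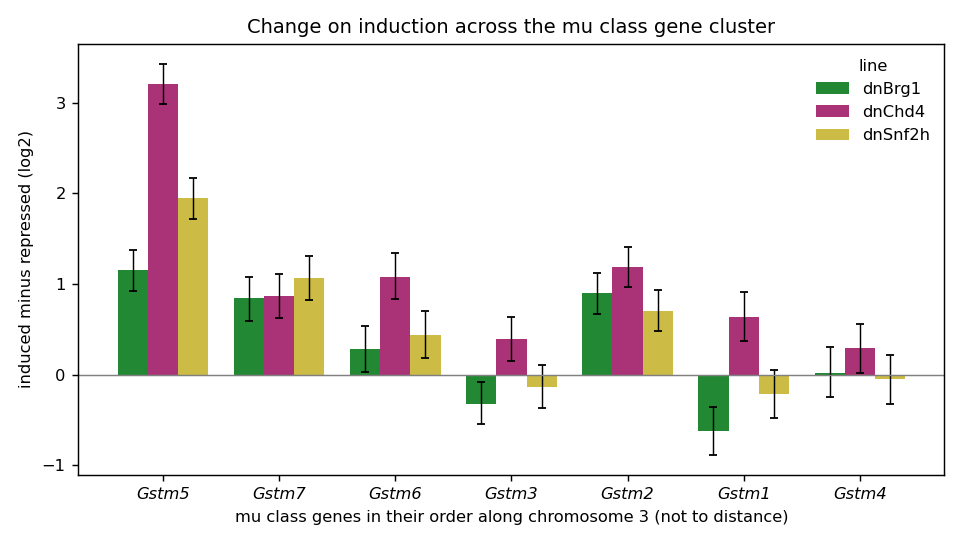
Induced minus repressed log2 signal (vertical axis) of 7 mu class genes in their order along chromosome 3, for dnBrg1, dnChd4 and dnSnf2h; bars are limma estimates from 12 arrays and whiskers are 95% confidence intervals. Gstm5, Gstm7 and Gstm2 are above 0 in each line, and Gstm3 and Gstm1 change sign between dnBrg1 and dnChd4.

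Genes that supply, use or export glutathione moved in both directions. Of 12 measured genes of glutathione synthesis and recycling, 3 rose and 1 fell in dnBrg1, and 1 rose and 5 fell in each of dnChd4 and dnSnf2h. Slc7a11, the cystine importer that feeds glutathione synthesis, fell by 1.85, 2.58 and 2.75 (adjusted p = 4.36e-06, 1.28e-07 and 1.06e-07). It ranged from 5.50 to 8.23 on the control libraries labelled repressed and from 5.71 to 8.35 on those labelled induced. Gss, glutathione synthetase, rose by 0.62, 0.40 and 0.44 (adjusted p = 0.00069, 0.0104 and 0.00615). The Gss calls in dnChd4 ended without dnChd4 repressed replicate 1 or induced replicate 1 (0.34 each), and in dnSnf2h without dnSnf2h induced replicate 1 (0.34). Quantile normalization also ended the dnChd4 call (0.29; adjusted p = 0.062), and a fit of dnSnf2h alone the dnSnf2h call (adjusted p = 0.0864).

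Of 16 glutathione-using peroxidases and reductases, 3, 4 and 2 rose and 0, 1 and 1 fell. Glrx2, mitochondrial glutaredoxin, rose by 0.82, 0.59 and 0.63 (adjusted p = 0.000139, 0.00109 and 0.000712), and Hagh, glyoxalase II, by 0.49, 0.58 and 0.50 (adjusted p = 0.00296, 0.000631 and 0.00204). Of 15 genes of conjugate export and mercapturate steps, 3, 4 and 2 rose and 1, 2 and 2 fell. Abcc1, a pump for glutathione conjugates, fell by 0.37, 0.39 and 0.59 (adjusted p = 0.00992, 0.00518 and 0.000267). Abcg2, another efflux pump, changed by 0.79, 0.79 and 0.34 (adjusted p = 0.000445, 0.000298 and 0.062). Kyat1, a cysteine conjugate beta-lyase, rose by 0.49, 0.47 and 0.40 (adjusted p = 0.00947, 0.00878 and 0.0235).

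Of 23 NRF2 regulators and targets, 6, 5 and 4 rose and 2, 4 and 7 fell, so calls went both ways in each line. The shares of all genes were 8.01%, 11.2% and 9.2% higher and 6.22%, 6.82% and 8.34% lower. Hmox1, heme oxygenase, rose by 1.36, 0.70 and 0.71 (adjusted p = 3.25e-06, 0.000467 and 0.000482), and Mafk, a small Maf partner of NRF2, by 1.09, 0.87 and 0.77 (adjusted p = 1.02e-05, 3.29e-05 and 0.000106). Prdx1, a peroxiredoxin, rose by 0.37, 0.51 and 0.36 (adjusted p = 0.0179, 0.00162 and 0.018). Taldo1 and Tkt, both of the pentose phosphate pathway, went apart: Taldo1 rose by 0.32, 0.49 and 0.28 (adjusted p = 0.0268, 0.00125 and 0.0438) and Tkt fell by 0.35, 0.49 and 0.60 (adjusted p = 0.0408, 0.0049 and 0.00122). Nqo1, a classic NRF2 target, changed by -0.06, -0.02 and -0.09 (adjusted p = 0.737 or more). Of 7 aryl hydrocarbon receptor genes, 1 rose in dnBrg1, Tiparp, at 0.33 (adjusted p = 0.0344; 0.0742 with quantile normalization), and none was called in dnChd4 or dnSnf2h by limma. There, 1 and 2 of the 7 had an unadjusted p under 0.05, beside 5563 and 5667 of 19938 genes.

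Several of these related calls were lost when a single array was left out, which leaves 1 array in its group. The share of all genes called in such fits is not given here, so nothing about the related genes is read from the counts. In dnBrg1, leaving out repressed replicate 1 or 2 or induced replicate 1 or 2 took the calls among 73 related genes from 20 to 10, 9, 8 and 7. In dnChd4, leaving out repressed replicate 2 or induced replicate 1 took them from 26 to 16 and 15, and in dnSnf2h leaving out induced replicate 1 took them from 24 to 9. In dnBrg1 the calls of Taldo1 and Tiparp were lost without any 1 of its 4 arrays, those of Kyat1 and Prdx1 without repressed replicate 1 or either induced array, and those of Abcc1 and Tkt without repressed replicate 2 or either induced array. Tkt in dnBrg1 was also lost without any 1 of the 4 dnChd4 arrays. In dnChd4 the Kyat1 call was lost without repressed or induced replicate 2, and that of Abcc1 without repressed replicate 2 or induced replicate 1. In dnSnf2h the Kyat1 and Prdx1 calls were lost without repressed replicate 2 or either induced array, and that of Taldo1 without any dnSnf2h or dnChd4 array or either dnBrg1 induced array. Abcg2 in dnSnf2h passed without dnSnf2h repressed replicate 2 (0.47; adjusted p = 0.0231) or either dnBrg1 repressed array (0.34 each).

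Markers of proliferation moved with induction: of 11 measured, 10, 11 and 11 fell, with a mean log2 level of 9.49 to 9.62 on repressed and 8.55 to 9.04 on induced dominant-negative arrays and of 8.16 to 9.66 in the control line. The part of the proliferation markers in the transferase changes was not tested. Beside the marker counts, 8.01%, 11.2% and 9.2% of all genes were called higher and 6.22%, 6.82% and 8.34% lower. The 10 epithelial markers had a mean level of 5.54 to 5.73 on repressed and 5.38 to 5.61 on induced arrays, with 0, 0 and 1 called higher and 1 lower in each line. The 10 fibroblast markers had 7.37 to 7.54 and 6.99 to 7.47, with 0, 1 and 0 called higher and 5, 0 and 3 lower. Among these fibroblast markers Vim read 12.29 to 13.16, Col1a2 10.90 to 12.65 and Pdgfrb 7.66 to 9.56 over the 17 arrays. Dcn and Lum, 2 of the 10, lay below 4.77 on all arrays, and the rest read between 4.84 and 8.85. Of 10 macrophage markers, 6 lay below 4.77 on all arrays, and their mean level was 4.54 to 4.75 repressed and 4.73 to 4.83 induced, with 1, 2 and 1 called higher and 1, 0 and 0 lower. None of 8 adipocyte markers was called by limma. At most 1 had an unadjusted p under 0.05 in any line, beside 5061, 5563 and 5667 of 19938 genes.

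Genes whose pattern was most like that of Gstm5 were ranked by the root mean square difference of log2 signals over the 17 arrays, after each gene's own mean was taken off. The 5 nearest of 19937 were Aldh1a1, a retinaldehyde dehydrogenase (0.43), Tcp11l2 (0.46), Lcp1, an actin-bundling protein (0.47), Mcam, a cell adhesion molecule (0.50), and Cpeb4, an mRNA-binding protein (0.57). The median over all genes was 1.33. Aldh1a1 changed by 1.35, 3.39 and 2.65 in dnBrg1, dnChd4 and dnSnf2h, Lcp1 by 0.58, 2.91 and 1.68, and Mcam by 0.74, 3.78 and 2.02. This is the order of lines seen for Gstm5. Tcp11l2, at 1.91, 2.35 and 2.26, kept that order but was flatter across lines. Cpeb4, at 1.21, 1.93 and 1.18 (SE 0.16 each), was highest in dnChd4, with dnBrg1 and dnSnf2h within the SE of each other. Within the family Gstm2 ranked 42nd (0.74), Gstm6 230th, Gstm7 285th and Gstm1 4280th, and Mgst2 stood at 19407. The points share arrays and processing, and the ranking carries no test.

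**Figure D4:**
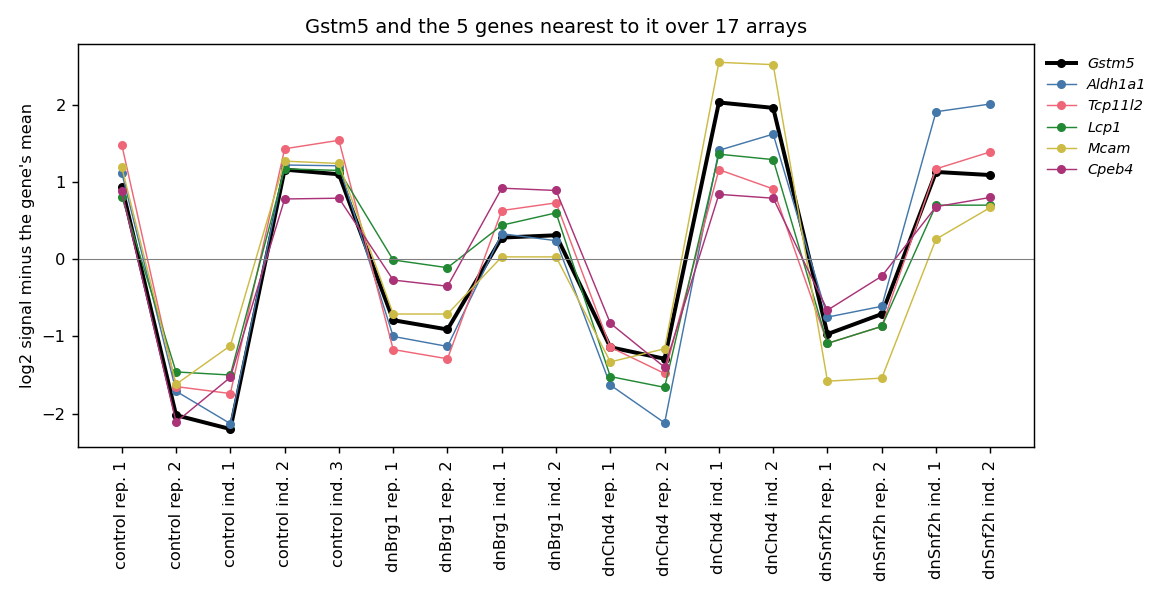
Log2 signal minus each gene's mean (vertical axis) on the 17 arrays for Gstm5 (thick line) and the 5 genes nearest to it, by line, repressed (rep.) or induced (ind.) state and replicate; lines join points only to guide the eye. All 6 genes are high on the control library labelled repressed replicate 1 and low on the one labelled induced replicate 1.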

How the data were processed

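Levels are log2 values as deposited, 1 per probe set and array. Per the submitters' processing notes the authors used Affymetrix Expression Console (version, build and normalization not given in the sources used here). Of 35557 probe sets, 21789 had 1 symbol; for 999 genes with several, the one with the highest mean was kept, leaving 19938 genes. No further scaling was applied, and an array gives no read depth. The members, lists and the exclusion of the control line from the main fit were chosen with earlier results of these data known.

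A limma 3.58.1 fit (lmFit, contrasts.fit, eBayes; R 4.3.3) with 1 mean per group was run on the 12 dominant-negative arrays, and on 17 arrays for the control line. P-values were adjusted by Benjamini-Hochberg over all genes in each contrast, with 0.05 as threshold. For the 9 genes no p is given for the dominant-negative inductions or their differences, which were fitted but rest on the values that chose the genes. The code was tested on simulated data. Named outside the 9 genes were those of each list past the threshold one way in all 3 lines (at most 6), the largest change per list, Slc7a11, Nqo1 and the 5 genes nearest to Gstm5; Gsto2, Gstp1, Gstm3, Alox5ap and the overlapping RNA were added after their values were seen. Other settings were 17 and 15 arrays, a line alone, a replicate block, quantile normalization, median centring, trended robust eBayes, no dim genes, all probe sets and each array left out. Promoter windows are RefSeq's, on GRCm38.p6, matched by symbol. The order of the mu genes and the overlap with Gstm5 come from the RefSeq gene table of that build, and no probe position was used.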

Additional observations from a re-analysis of the deposited data

Results flagged for a closer look

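Differences between lines in the induction were flagged for 5 genes of the family, by the threshold of the fit. For Gstm5 the change in dnBrg1 minus that in dnChd4 was -2.06, dnBrg1 minus dnSnf2h -0.80 and dnChd4 minus dnSnf2h 1.26. For Gstm1, dnBrg1 minus dnChd4 was -1.26. Both genes were chosen by their inductions, so for them the flag is no test and the differences are descriptions.

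Outside the 9 genes, dnBrg1 minus dnChd4 was -0.71 for Gstm3 (limma adjusted p = 0.042), -0.80 for Gstm6 (adjusted p = 0.0322) and -0.72 for Alox5ap (adjusted p = 0.0254), a MAPEG protein that helps 5-lipoxygenase make leukotrienes. Gstm3 and Alox5ap were picked after their values were seen, and Gstm6 for the size of its change. Alox5ap changed by 0.73 (SE 0.104) in dnChd4, by 0.01 in dnBrg1 and by 0.04 in dnSnf2h. The Gstm3 and Alox5ap calls were each lost on leaving out any 1 of the 8 dnBrg1 and dnChd4 arrays, with adjusted p of up to 0.223 and 0.168. The Gstm6 call was lost without dnBrg1 repressed replicate 1, dnBrg1 induced replicate 1 or 2, dnChd4 repressed replicate 2 or dnChd4 induced replicate 1 or 2, at -0.87 to -0.62. Gstm3 was also lost with median centring (adjusted p = 0.0592), quantile normalization (0.0655), the replicate block (0.0607) and trended robust eBayes (0.0531), and Gstm6 with quantile normalization (0.0523); Gstm6 is among the dim genes left out in another setting, which gives it no value. With 17 arrays none of the 3 passed (adjusted p = 0.723 for Gstm3, 1 for Gstm6 and 0.345 for Alox5ap). Groups of 2 or 3 arrays are too small to test single arrays as outliers.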

How the results depend on the processing

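Counts of genes past the threshold moved with the arrays in the fit. The share of all genes called under these other settings is not given here, so nothing about the transferases is read from the counts. With all 17 arrays the members called on induction went from 5, 5 and 4 in dnBrg1, dnChd4 and dnSnf2h to 0, 0 and 0. In the order dnBrg1 against dnChd4, dnBrg1 against dnSnf2h and dnChd4 against dnSnf2h, the differences between inductions went from 2, 1 and 1 to 1, 0 and 0, and the first 2 repressed-line comparisons from 2 and 2 to 0 and 0. Other transferases went from 2, 6 and 4 to 0, 1 and 0, and related genes from 20, 26 and 24 to 1, 0 and 0. With 15 arrays 1 repressed control array is left, and no control count is given. Median centring took dnBrg1 against dnSnf2h from 1 to 0 and repressed dnBrg1 against dnChd4 from 2 to 1. With dnSnf2h alone, other transferases went from 4 to 2 and related genes from 24 to 10. With each array left out, members called on induction ranged over 4 to 5 in each line; differences over 2 to 2, 0 to 1 and 1 to 2; repressed lines over 1 to 2, 1 to 2 and 0 to 1; control over 0 to 0; other transferases over 2 to 3, 4 to 6 and 3 to 4; related genes over 7 to 21, 15 to 28 and 9 to 29. No called result changed sign under the settings run. Among the named related genes, median centring ended the calls of Tkt in dnBrg1 (adjusted p = 0.0694) and Taldo1 in dnSnf2h (0.118), and a line fitted alone those of Tkt in dnBrg1 (0.0552) and of Gstm6 (0.0767), Kyat1 (0.099), Prdx1 (0.132) and Taldo1 (0.233) in dnSnf2h. With 15 arrays Taldo1 in dnSnf2h had 0.0632. Abcg2 in dnSnf2h passed with quantile normalization (0.0137), trended robust eBayes (0.0484) and no dim genes (0.0471).

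Whether replicate numbers pair the samples cannot be told, since 2 arrays per state give 1 value per line. Same-numbered deviations correlated at 0.016, 0.135 and 0.313 in dnBrg1, dnChd4 and dnSnf2h. The control values, -0.762 and -0.648, come from groups that hold the 2 arrays that went against their labels. The replicate block left the member counts at 5, 5 and 4 on induction and at 2, 1 and 1 for the differences, changed no member call, and ended the calls of Tkt in dnBrg1, Taldo1 in dnSnf2h and the Gstm3 difference between dnBrg1 and dnChd4 (adjusted p = 0.0529, 0.0579 and 0.0607).

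With 2 arrays per group, small changes cannot be resolved, and dim genes such as Gstt1 and Gstm6 bound little.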

Other observations

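Gsto2, the second omega class gene, and Gstp1 were chosen after their values were seen. The Gsto2 change was 0.30 (adjusted p = 0.233), 0.71 (adjusted p = 0.00346) and 0.62 (adjusted p = 0.0088) in dnBrg1, dnChd4 and dnSnf2h (SE 0.15 each), while the omega class member Gsto1 changed by 0.41, -0.18 and -0.20. For Gstp1, the pi class enzyme, the values were 0.08, -0.13 and -0.15 (SE 0.107) with no call.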
